A study of Schizosaccharomyces pombe with 6 samples.

Results

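The histone genes hht2, hhf2 and pht1 of fission yeast (Schizosaccharomyces pombe) lie on chromosome II, where hht2 and hhf2 form a divergent pair. They were examined, with 500 bases on each side, on 6 tiling arrays that measured newly made FLAG-tagged histone H3. The 3 genes were chosen by name among the 942 genes measured on chromosome II, and a probe was counted with them when its centre lay in one of the genes or its flanks and it was no control spot. There were 98 such probes of 43993 in all, 53 at the hht2 and hhf2 pair and 45 at pht1.

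Every culture, WT included, carried the plasmid pINV1-H3.2-FLAG, from which tagged H3 is made when glucose is replaced by sucrose. Per the labels, cells in 8% glucose received 15 mM hydroxyurea, which blocks replication, for 4 h and were then induced for 2 h in 4% sucrose with the drug kept on. After fixation in 1% formaldehyde for 20 min, chromatin was sheared to 400 to 600 bp and precipitated through the FLAG tag. The precipitated DNA was labelled with Cy5 and the whole-cell extract DNA with Cy3. The 4 genotypes were WT (3 arrays), amo1D, a deletion of the gene for a protein of the nuclear rim, rix1E414K, a mutant of a rixosome subunit, and pob3D, a deletion of a gene for FACT, a histone chaperone that acts on nucleosomes during transcription. A single array was made of each mutant. Whether the WT arrays stand for separate cultures is not said in the labels, so every p-value below measures only the spread between these 3 samples, and the spread of a mutant was taken to equal that of WT. All values are log2 of Cy5 over Cy3 against the median probe of the same array. They are relative to input DNA and not to total H3.

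A nucleosome wraps DNA around an octamer of H3, H4, H2A and H2B. Most H3 and H4 is made for replication, but some nucleosomes are also replaced outside S phase, often where genes are transcribed, and tagged H3 that enters chromatin during a replication block marks that exchange. The hht2 gene encodes H3 and hhf2 encodes H4. The pht1 gene encodes the variant H2A.Z, which sits in nucleosomes at the starts of many genes and is exchanged by the SWR1 remodelling complex.

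The space between hhf2 and hht2 is shown because both genes are transcribed away from it and because pob3D departed from WT there. It was read from the RefSeq genome ASM294v3, plus strand, chrII:1364985-1365118, and holds 134 bases. Capitals mark each AACCCT, the repeated core of a box known upstream of fission yeast histone genes, here as its reverse complement AGGGTT.
space between hhf2 and hht2: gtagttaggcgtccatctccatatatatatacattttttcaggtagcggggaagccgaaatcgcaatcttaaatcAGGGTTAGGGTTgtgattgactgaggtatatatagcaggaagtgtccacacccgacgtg
Both copies of the motif abut each other. They start 59 and 53 bases before hht2 and lie 76 and 82 bases before hhf2. Both strands of the 250 bases upstream of 5113 protein-coding genes were searched. At least 1 AACCCT stood before 424 of them (8.29%) and the tandem pair before 20 (0.391%), 9 of which were the 9 core histone genes of the hht, hhf, hta and htb families. Genes that diverge from a shared space share its motifs. A match is a description of the letters and not of a bound factor.

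No AACCCT was present in the 250 bases before pht1. They are shown because the lowest WT mean of the 98 probes, -0.79, lay there (minus strand, chrII:1503445-1503694).
bases before pht1: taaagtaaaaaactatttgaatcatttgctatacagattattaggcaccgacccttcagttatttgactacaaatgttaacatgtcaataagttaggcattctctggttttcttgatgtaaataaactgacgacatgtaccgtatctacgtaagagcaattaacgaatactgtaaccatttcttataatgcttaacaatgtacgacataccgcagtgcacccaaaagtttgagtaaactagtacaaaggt

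Besides hht2, the genes hht1 and hht3 encode H3, and the first 60 coding bases of each show how far probes can tell them apart. Capitals mark bases that differ from hht2. The stretches lie at chrII:1365158-1365217 (plus strand) for hht2, chrI:4699829-4699888 (plus strand) for hht1 and chrII:3529470-3529529 (minus strand) for hht3.
hht2 coding bases: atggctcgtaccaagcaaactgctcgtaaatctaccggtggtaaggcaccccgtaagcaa
hht1 coding bases: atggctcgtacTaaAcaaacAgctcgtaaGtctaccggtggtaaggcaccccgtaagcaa
hht3 coding bases: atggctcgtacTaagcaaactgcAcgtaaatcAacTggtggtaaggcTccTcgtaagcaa
Over the 411 coding bases, hht2 was identical to hht1 at 365 (88.8%) and to hht3 at 363 (88.3%). The 312 coding bases of hhf2 were identical to each of hhf1 and hhf3 at 285 (91.3%). As a result, 7 of the 8 probes in the coding part of hht2 and 6 of 6 in that of hhf2 had near matches elsewhere, at 85% identity or more over at least 50 bases. No probe of pht1 had one, nor did any outside the coding parts of hht2 and hhf2.

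The arrays were comparable in brightness, with median processed signals of 1018 to 1150 in Cy5 and 993.2 to 1145 in Cy3. All 98 probes were well above background in both channels on every array, and none was saturated. The labelled deletion of amo1 was borne out by its 31 probes, where Cy3 was -9.41 on the amo1D array and -0.91 to -0.72 on the others. The rix1 and pob3 genes have no probes, so those labels were not checked. A slide and scan held 1 mutant and 1 WT array each, namely WT replicate 1 beside amo1D, replicate 2 beside rix1E414K and replicate 3 beside pob3D. The array numbering runs 900 bases ahead of the reference in this region, and positions given here are those of the reference.

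The H3 gene hht2 (plus strand, 1365119 to 1365818, coding part 1365158 to 1365568) had the highest ratio of the 942 genes measured on chromosome II, and it ranked first on all 6 arrays. Its 14 probes averaged 1.59, 1.74 and 1.19 in WT replicates 1, 2 and 3, 1.97 for amo1D, 1.34 for rix1E414K and 1.25 for pob3D. The amo1D array lay above all WT arrays, and the other mutants lay inside the WT range. The WT mean was 1.51 ± 0.28 (SD, n = 3). The next genes were the polyubiquitin gene ubi4 at 0.95 ± 0.33, grp2 at 0.95 ± 0.34 and ish1 at 0.87 ± 0.38, whose spreads overlap.

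**Figure D1:**
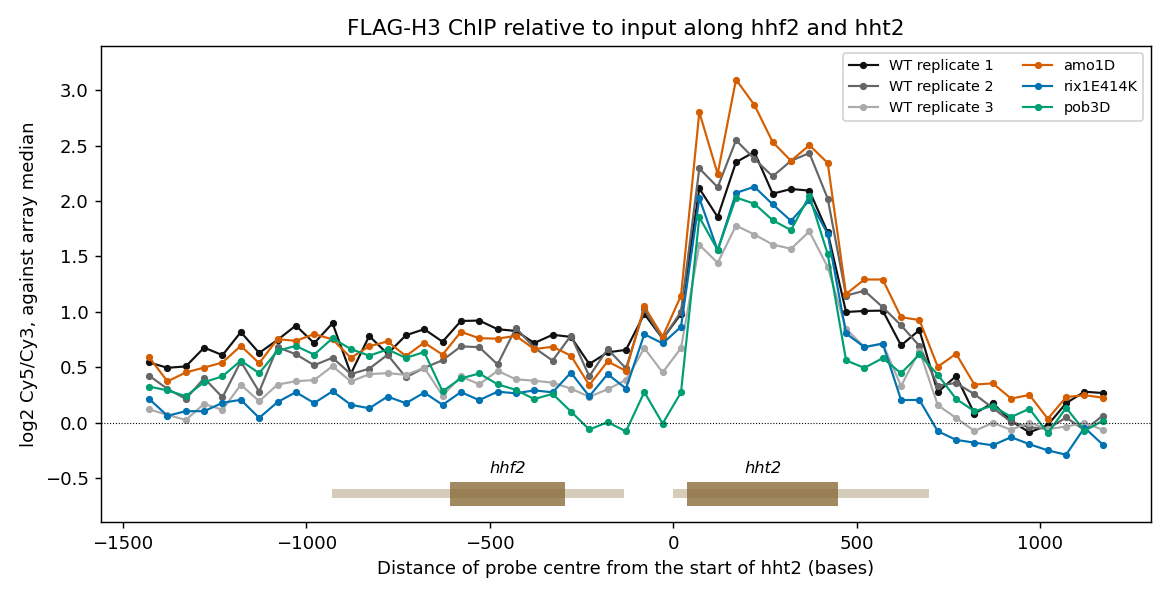
Log2 Cy5/Cy3 of each probe against the array median (y axis) by distance from the start of hht2 in bases (x axis), 1 line per array. Thin boxes are genes and thick boxes coding parts. All 6 lines step up at one edge of the hht2 coding part and down at the other, and pob3D lies lowest over the space between the genes.

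The high ratio of hht2 was concentrated in its coding part. Its 8 coding probes averaged 2.09, 2.30 and 1.60 in WT, 2.59 for amo1D, 1.91 for rix1E414K and 1.82 for pob3D, and this part ranked first of 886 coding parts on every array. The 6 probes of the gene outside its coding part averaged 0.92, 0.99 and 0.65 in WT, 1.13 for amo1D, 0.58 for rix1E414K and 0.49 for pob3D. Each array was thus lower outside the coding part than inside it. The WT mean outside it, 0.85 ± 0.18, lay below the whole-gene means of ubi4, grp2 and ish1, though within their spread. The first rank of the hht2 gene thus rested on its coding probes. The difference between coding and other probes was 1.17, 1.31 and 0.95 in WT, 1.47 for amo1D, 1.33 for rix1E414K and 1.32 for pob3D. In WT it averaged 1.14 ± 0.18 (SD, n = 3), the largest of 810 genes, for which the median was 0.033 and the 5th to 95th percentile ran from -0.22 to 0.29. The same difference was 0.089 ± 0.064 at hhf2, rank 278, and 0.20 ± 0.095 at pht1, rank 110.

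The change at the edges of the coding part took place between neighbouring probes, whose starts are 50 bases apart. The last probe before it holds 13 coding bases and the next probe 60. Between them the ratio rose by 1.13, 1.29 and 0.93 in WT, by 1.66 for amo1D, by 1.16 for rix1E414K and by 1.58 for pob3D. At the far edge the first probe after the coding part holds 8 coding bases, and the mean change over the 6 arrays was -0.87 ± 0.21 (SD, n = 6). Of 41971 neighbouring pairs of probes on chromosome II, 7 had a mean step at least as large as the first edge and 22 at least as large as the second, each count including the edge itself. The median size of a step was 0.058 and the 99th percentile 0.31. The edges of the hhf2 coding part had mean steps of 0.15 and 0.015. The sheared fragments were 400 to 600 bp long per the labels, longer than the distance over which these steps occurred.

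Both dyes showed the steps. Signal in 1 channel also carries each probe's own response, so the values that follow are a description. Against the array median, log2 Cy3 of the whole-cell extract rose by 2.90 ± 0.47 (SD, n = 6) into the coding part and changed by -2.65 ± 0.54 out of it, and log2 Cy5 rose by 4.19 ± 0.60 and changed by -3.51 ± 0.57. Over the coding part, Cy3 was 1.03, 1.01 and 1.76 in WT, 1.14 for amo1D, 1.29 for rix1E414K and 1.37 for pob3D. Outside it, Cy3 was -1.58, -1.65 and -1.64 in WT, -1.82 for amo1D, -1.09 for rix1E414K and -2.37 for pob3D. The coding probes averaged 48.5% GC and the probes after the coding part 24.7%, and Cy3 rose with GC on these arrays. As a residual from that trend, WT Cy3 of coding over other probes still differed by 1.93 ± 0.49 (SD, n = 3), rank 5 of 810 genes. At hhf2, with 46.9% GC in its coding probes, that residual difference was 0.43 ± 0.16, rank 172.

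**Figure D2:**
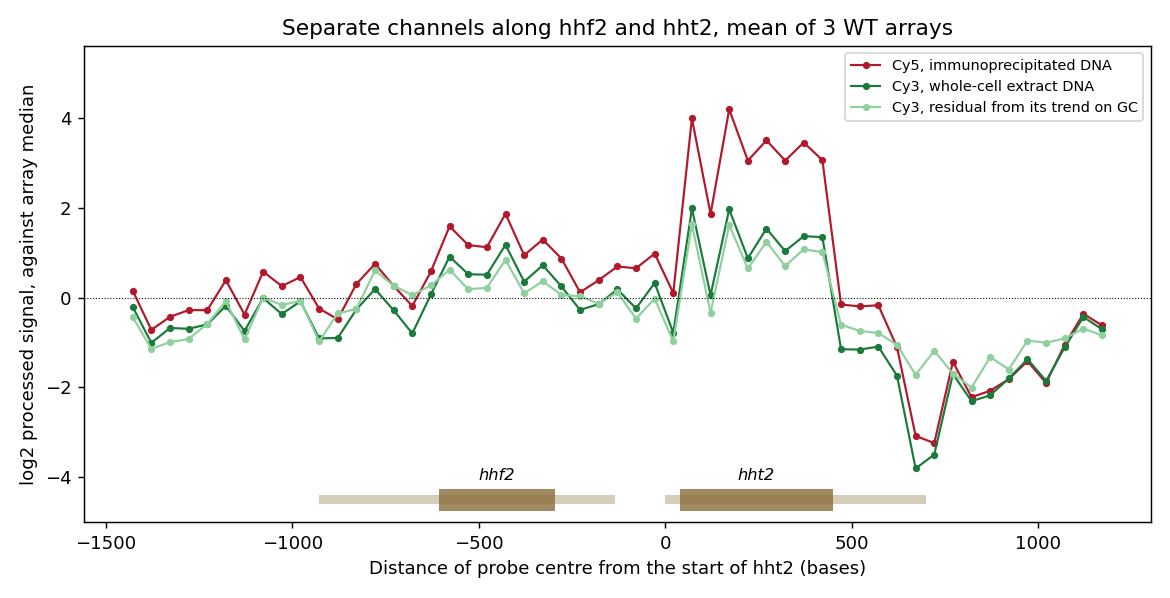
Log2 processed signal against the array median (y axis), mean of the 3 WT arrays, by distance from the start of hht2 in bases (x axis), for Cy5, for Cy3 and for Cy3 as a residual from its trend on GC. Thin boxes are genes and thick boxes coding parts. Both channels, and the residual, step at the edges of the hht2 coding part.

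The plasmid is named for an H3.2 gene, and the reference annotation lists h3.2 as a synonym of hht2. A probe in the coding part cannot tell chromosomal from plasmid copies of that sequence, and the part of plasmid DNA in the values at hht2 was not tested. The inv1 promoter, for which the plasmid is also named, offers a second sequence to set beside it. The 59 probes of the patch placed at inv1 on chromosome III had Cy3 of 0.47, 0.70 and 1.24 in WT. In the mutants Cy3 there was 0.75 for amo1D, 1.01 for rix1E414K and 1.02 for pob3D. At both places WT replicate 3 had the highest Cy3, then pob3D and rix1E414K, and the lowest 3 arrays were WT replicates 1 and 2 and amo1D. At inv1, pob3D and rix1E414K were nearly equal, and no residual on GC was taken there. Probes at inv1 cannot tell chromosomal from plasmid copies either. Whether these orders have a common source was not tested. The ratio over the inv1 patch was 1.50, 1.05 and 0.67 in WT, 1.50 for amo1D, 0.60 for rix1E414K and 0.98 for pob3D.

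The coding probe of hht2 without a near match to the other H3 genes also had a high ratio. This 1 probe, starting at 1365461, read 2.09, 2.43 and 1.73 in WT, 2.50 for amo1D, 2.01 for rix1E414K and 2.05 for pob3D. The WT means of the 7 other coding probes ran from 1.71 to 2.23, and those 7 probes bracketed its value on every array but pob3D, where it was the highest of the 8 coding probes.

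The H4 gene hhf2 (minus strand, 1364189 to 1364984, coding part 1364512 to 1364823) was also above most genes. Its 16 probes averaged 0.75, 0.59 and 0.38 in WT, 0.67 for amo1D, 0.26 for rix1E414K and 0.39 for pob3D. The rix1E414K array was below all WT arrays, and the others were inside the WT range. The WT mean of 0.58 ± 0.19 (SD, n = 3) ranked 33 of 942 genes. Its neighbours in that order, gpx1 at 0.59 ± 0.28 and SPBC2A9.13 at 0.57 ± 0.11, did not differ from it beyond their spread. Every one of the 16 probes had a WT mean above 0, from 0.39 to 0.69, and the ratio varied little along the gene. It was 0.52 ± 0.20 before the coding part, 0.63 ± 0.22 over it, 0.55 ± 0.16 after it and 0.43 ± 0.22 in the 500 bases downstream.

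The WT level of the space between hhf2 and hht2 lay close to that of hhf2. Its 3 probes averaged 0.80, 0.75 and 0.50 in WT, 0.76 for amo1D, 0.61 for rix1E414K and 0.062 for pob3D. Only pob3D lay outside the WT range. The 500 bases upstream of hht2, which span this space and the first part of hhf2, averaged 0.61 ± 0.19 in WT. Those upstream of hhf2 averaged 1.51 ± 0.28, the highest of 964 upstream flanks, and include most of the hht2 coding part. Beyond hht2 the ratio fell off, to 0.083 ± 0.086 over the downstream 500 bases, into which the end of the convergent gene sfi1 reaches (-0.17 ± 0.017 over the whole of sfi1).

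The H2A.Z gene pht1 (minus strand, 1502203 to 1503444, coding part 1502642 to 1503061) lay toward the other end of the scale. Its 25 probes averaged -0.34, -0.16 and -0.35 in WT, -0.41 for amo1D, -0.43 for rix1E414K and -0.22 for pob3D. The amo1D and rix1E414K arrays were below all WT arrays and pob3D was inside their range. The WT mean, -0.28 ± 0.11 (SD, n = 3), ranked 883 of 942 genes, between mrpl51 at -0.28 ± 0.068 and emc7 at -0.28 ± 0.041, from which it did not differ beyond the spread. None of the 25 probes had a WT mean above 0. Cy3 was also low over pht1, at -1.32 ± 0.026, rank 924 of 942. With the trend of the ratio on mean intensity removed by loess, the WT mean ratio of pht1 was -0.12. The part of low signal in its low ratio was not tested.

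Within the pht1 locus the ratio was lowest before the gene and rose into the coding part. The 500 bases upstream averaged -0.96, -0.37 and -0.74 in WT, -0.84 for amo1D, -0.86 for rix1E414K and -0.53 for pob3D. WT replicate 2 was the highest of the 6 arrays there and replicate 1 the lowest. The WT mean was -0.69 ± 0.30, rank 924 of 964 upstream flanks. It was -0.52 ± 0.23 before the coding part, -0.14 ± 0.15 over it and -0.19 ± 0.050 after it. In the 500 bases downstream it was -0.13 ± 0.081. Most of these bases lie inside the convergent cell-cycle kinase gene cdc2, which ends at 1502095 (-0.034 ± 0.11 over the whole of cdc2). A threonine tRNA gene, SPBTRNATHR.06, starts 509 bases beyond the start of pht1, just outside the flank, and was looked at because of its place. Its 1 probe had a WT mean of -0.49 ± 0.18, above the -0.76 that the window from 300 to 200 bases before pht1 reached in WT.

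**Figure D3:**
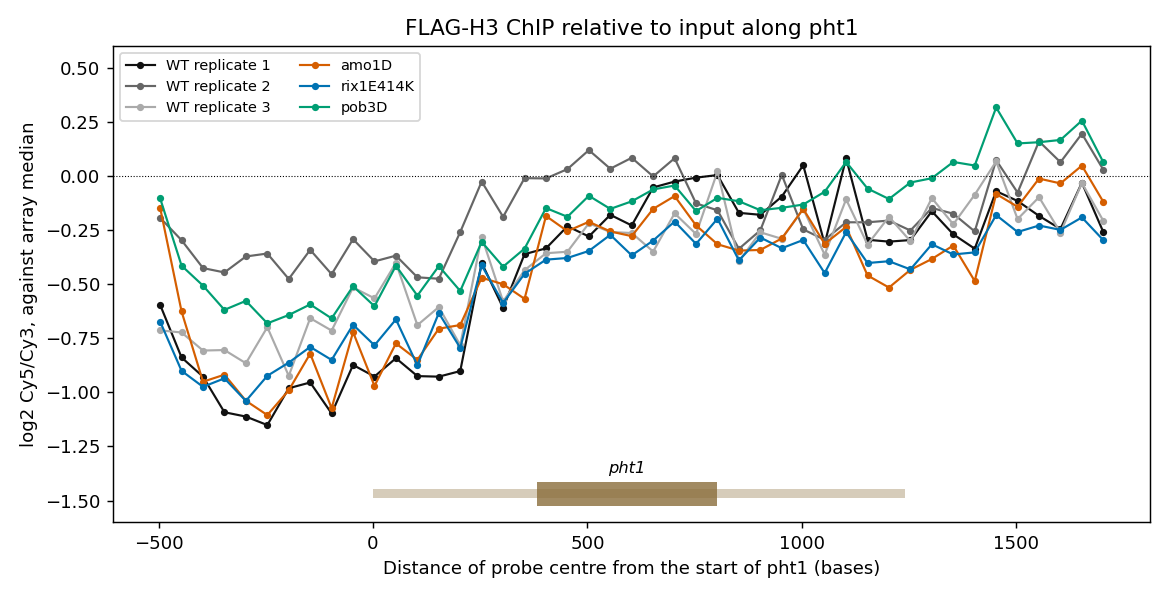
Log2 Cy5/Cy3 of each probe against the array median (y axis) by distance from the start of pht1 in bases, in the direction of transcription (x axis), 1 line per array. The thin box is the gene and the thick box its coding part. The ratio is lowest upstream and in the first bases of the gene on every array, and WT replicate 2 is the least low.

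Protein-coding genes as a whole had a mild form of the pht1 profile. Averaged over 100-base windows in WT, their mean was -0.064 from 200 to 100 bases before the start and 0.077 from 400 to 500 bases inside. At pht1 the same windows gave -0.72 and -0.21, and at hht2 0.52 and 1.36. Over all genes the upstream window was at 0.0066 in WT replicate 2 and at -0.15 in replicate 1, and these were also the highest and the lowest WT array upstream of pht1.

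**Figure D4:**
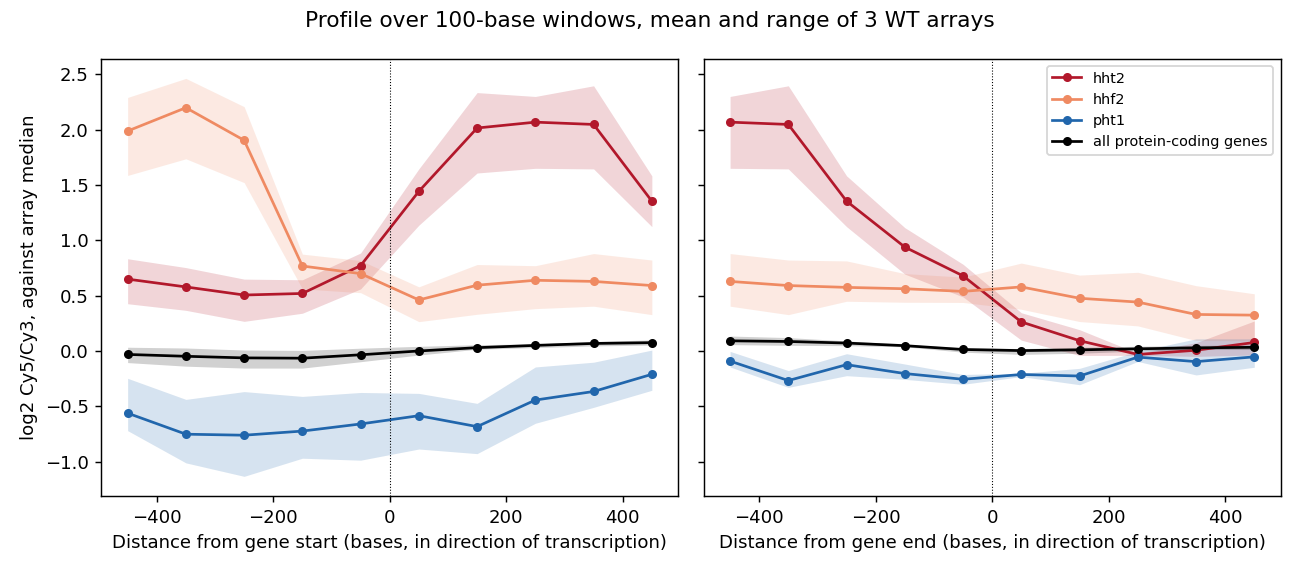
Log2 Cy5/Cy3 against the array median (y axis) in 100-base windows around gene starts (left) and ends (right), by distance in bases in the direction of transcription (x axis). Lines are means and bands the range of the 3 WT arrays. The hht2 line peaks inside the gene, hhf2 rises upstream where its flank enters hht2, and pht1 stays below the mean of all protein-coding genes around its start.

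In amo1D the coding part of hht2 was the place where the 3 loci departed most from WT. It was 0.60 higher on the log2 scale (SE 0.25, 1.51-fold), and 0.50 higher than WT replicate 1 on the same slide. The WT SD of this part was 0.36 (n = 3), and the SE is limma's, drawn toward the spread of all coding parts. In limma with Benjamini-Hochberg adjustment over 886 coding parts this did not pass (unadjusted p = 0.0493, adjusted p = 0.883). Of all coding parts, 0% passed and 4.97% had an unadjusted p under 0.05. The whole gene was 0.46 higher (SE 0.21, adjusted p = 0.79), its part outside the coding sequence 0.27 higher and its downstream flank 0.22 higher, all above every WT array. The size of these differences depended on the processing. After quantile normalization the coding part was 0.26 higher and the whole gene 0.20 higher. With every array scaled to the same median absolute deviation, the values were 0.26 and 0.21. Without WT replicate 3 they were 0.40 and 0.30, and with probes of 1 match only the whole gene was 0.29 higher. The difference of the coding part ran from 0.26 to 0.75 over 12 alternatives, chosen after it was seen, with adjusted p of 0.158 to 0.949 in limma. Of the 14 probes of hht2, 13 lay above all WT arrays, against 25% of all probes, though neighbouring probes share fragments. Its H4 partner differed by 0.091 (SE 0.15, adjusted p = 0.94), inside the WT range, and pht1 by -0.13 (SE 0.11, adjusted p = 0.89). Against WT replicate 1 on the same slide these were -0.087 and -0.068, and over the other alternatives they ran from -0.017 to 0.18 and from -0.16 to -0.054.

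In rix1E414K the hhf2 and pht1 genes lay below all WT arrays and hht2 lay inside the WT range. Of the 98 probes, 61 were below all WT arrays and 0 above, where 23.5% and 23.6% of all probes were. Neighbouring probes share fragments, so the 98 are not separate observations, and none of them passed after adjustment over all probes. The hhf2 gene was lower by a log2 difference of -0.32 (SE 0.15, 0.802-fold), and by -0.33 against WT replicate 2 on its slide, with 13 of its 16 probes below every WT array. The difference did not pass limma's test with Benjamini-Hochberg adjustment over 942 genes (adjusted p = 0.67), and 24.9% of all genes lay below all WT arrays. At pht1 it was -0.15 (SE 0.11, adjusted p = 0.72), or -0.089 without WT replicate 2, with 17 of 25 probes below, and at hht2 -0.17 (SE 0.21, adjusted p = 0.85), with 3 of 14 probes below. Within the slide it was -0.28 at pht1 and -0.40 at hht2. Over the other alternatives it ran from -0.41 to -0.23 at hhf2, from -0.18 to -0.052 at pht1 and from -0.33 to -0.026 at hht2. None of the 8 coding probes of hht2 was outside the WT range in this mutant. Over hhf2, Cy3 was 0.20 in this mutant, above the 0.034, 0.062 and 0.11 of the WT replicates. Outside the hhf2 coding part it was -0.064, against -0.30, -0.37 and -0.26, and over the coding part 0.63, inside the WT range of 0.58 to 0.77. As a residual from the trend on GC, Cy3 outside that coding part was 0.13 above the WT mean, against 0.24 without this step. Over the coding part the residual was 0.471, just above the WT range of 0.249 to 0.469. Cy3 was also above every WT array outside the hht2 coding part, at -1.09, and over pht1, at -0.93. As residuals on GC, these differences from the WT mean were 0.27 instead of 0.53 and 0.35 instead of 0.40. The part of Cy3 in the low ratios was not tested.

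In pob3D the largest departures from WT lay in the space between hhf2 and hht2. There 3 of 3 probes were below all WT arrays, as were 30.6% of all probes, with differences of -0.66 to -0.59 from the WT mean. All 3 had an unadjusted p under 0.05 in limma, which 2.95% of all probes had in that direction. None of the 3 passed after Benjamini-Hochberg adjustment over all probes, and as neighbours they share fragments and are not separate observations. Against WT replicate 3 on the same slide, the mean over the space differed by -0.44. The probes before the coding parts were also below all WT arrays, 3 of 3 at hhf2 and 1 of 1 at hht2, as were 5 of 6 probes in the hhf2 coding part and 4 of 5 after that of hht2. The 500 bases upstream of hht2 averaged 0.75, 0.67 and 0.39 in the WT replicates and 0.13 in pob3D, with 10 of 10 probes below every WT array. That difference of -0.47 (SE 0.18, 0.721-fold) had an unadjusted p of 0.0139 and an adjusted p of 0.27 in limma with Benjamini-Hochberg adjustment, and did not pass; 22.9% of all upstream flanks lay below every WT array. It was -0.26 against WT replicate 3 on the same slide.

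Both channels were lower in pob3D over that space. Cy3 was -0.55, against 0.068, 0.024 and 0.17 in the WT replicates, and Cy5 was -0.45, against 0.85, 0.79 and 0.68. Neither channel overlapped its WT range, and the part of the Cy3 difference in the ratio was not tested. By contrast, 0 of 7 probes after the hhf2 coding part and 0 of 8 in the hht2 coding part were below all WT arrays. The hht2 coding probes cannot tell chromosomal from plasmid copies, so they do not show the level of the chromosomal gene alone. Over the whole of hht2 and hhf2, Cy3 in pob3D was -0.23 and -0.28, below the lowest WT values of -0.13 and 0.034. The ratios of the whole genes differed by -0.26 at hht2 (SE 0.21, adjusted p = 0.57) and by -0.19 at hhf2 (SE 0.15, adjusted p = 0.57). Both lay inside the WT range, and against WT replicate 3 on the same slide the differences were 0.057 and 0.0034. Over the other alternatives they ran from -0.51 to -0.13 at hht2 and from -0.31 to -0.0999 at hhf2. At pht1 the difference was 0.065 (SE 0.11, adjusted p = 0.79), with a range of -0.021 to 0.13. Downstream of pht1 it was 0.24 (SE 0.13, adjusted p = 0.52), with 9 of 10 probes above every WT array, against 27.6% of all probes. That flank lies mostly inside cdc2, which as a whole read 0.028 in pob3D, inside the WT range of -0.13 to 0.082.

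**Figure D5:**
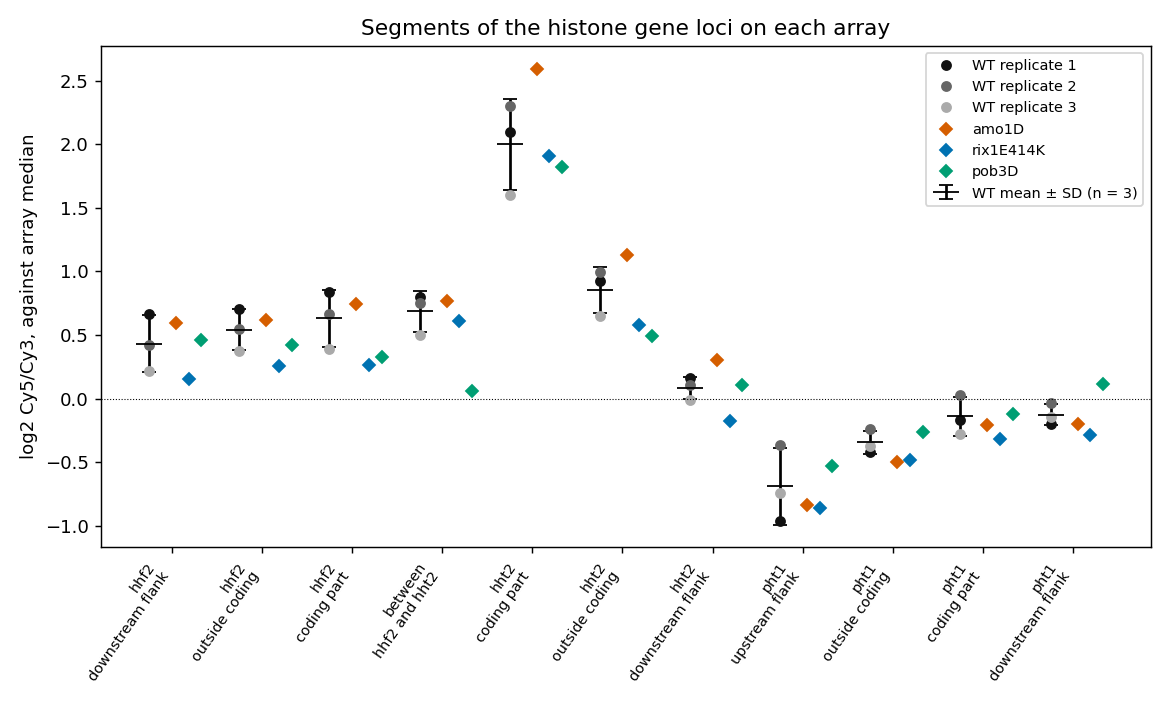
Log2 Cy5/Cy3 against the array median (y axis) for each segment of the 3 loci (x axis). Circles are WT arrays, bars their mean ± SD (n = 3) and diamonds the mutant arrays, 1 each. The pob3D array leaves the WT range downward between hhf2 and hht2, and amo1D upward over the hht2 coding part. Mutant arrays also leave it in other segments. For example, rix1E414K lies below it in the hhf2 coding part, outside that part and downstream, and pob3D lies above it downstream of pht1.

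No gene on chromosome II passed an adjusted p of 0.05 in limma in any mutant (0% of 942 in each), and 5.52%, 6.79% and 13.5% had an unadjusted p under 0.05 in amo1D, rix1E414K and pob3D. Of 964 upstream flanks, 0 passed in amo1D (0%), 11 in rix1E414K (1.14%) and 2 in pob3D (0.207%), none of them a flank of hht2, hhf2 or pht1. At an unadjusted p under 0.05 there were 6.43%, 7.16% and 10.1% of upstream flanks in the same order of mutants. No downstream flank passed (0% of 965 in each mutant, with 6.74%, 8.5% and 11.6% at an unadjusted p under 0.05).

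Other genes of histone supply and exchange were mostly off the arrayed region. Of 54 listed names of histone, chaperone, remodeller and regulator genes, 51 were found in the annotation and 10 were measured. Their WT levels ran from -0.22 to 0.50 with a median of 0.022, against 0.038 over all genes, and none lay above hhf2 or below pht1. The highest was cdc18, a replication licensing gene, at 0.50 ± 0.21, and the lowest were vps71, which encodes a subunit of SWR1, at -0.22 ± 0.0077 and rep2, for an activator subunit of the MBF transcription factor, at -0.21 ± 0.15. The others were pcf1, for the large subunit of the assembly factor CAF-1, at 0.20, slm9, for a subunit of the HIRA chaperone, at 0.14, the MBF subunits cdc10 at 0.12 and res1 at -0.086, the chaperone gene nap2 at 0.055, rvb2, for a helicase of remodelling complexes, at -0.011 and the MBF repressor gene yox1 at -0.16.

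Among these 10 genes, 1 lay above and 2 below all WT arrays in amo1D, 2 and 3 in rix1E414K, and 5 and 4 in pob3D, where 24.5% and 27.7%, 31.1% and 24.9%, and 28% and 38.2% of all genes did. The median differences were -0.025, -0.055 and 0.037, against -0.0023, 0.0041 and -0.030 over all genes. None passed the adjusted test in limma. At an unadjusted p under 0.05 there was 1 gene per mutant, each of them higher, where 4.14%, 1.8% and 5.73% of all genes were. These were yox1 by 0.39 in amo1D (adjusted p = 0.79), slm9 by 0.26 in rix1E414K (adjusted p = 0.67) and vps71 by 0.31 in pob3D (adjusted p = 0.35).

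The genes most like each member across the 6 arrays were named by Pearson's r, as a description, among about 880 protein-coding genes over 5000 bases away. For hht2 they were SPBC2A9.13 (r = 0.986), SPBC2A9.14 (0.972) and rsc4 (0.950). For hhf2 they were SPBC1711.09C (0.986), grp2 (0.972) and tsp0 (0.962), and for pht1 SPBC27B12.07 (0.912), tam41 (0.889) and crt10 (0.864). The r between hht2 and hhf2 was 0.77, and between pht1 and hhf2 0.13. The 6 points of each r share 3 slides.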

How the data were processed

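The data are 6 Agilent 2-colour tiling arrays. The authors' scanner files, made with Agilent Feature Extraction 12.0.3.1 per the file headers, hold background-subtracted, dye-normalized linear intensity values for Cy5 and Cy3. The values of the deposited series table are a linear ratio, equal to processed Cy5 over Cy3 within a relative 9.05e-09. Its median was 0.981 to 1.02, so it was not centred. From the files, log2 of that ratio was taken, outlier spots (0 to 19 per array) and 1227 control spots were left out, and each array was centred on its median, which removes any change common to all probes. Gene values are means of probes centred in the gene (at least 2), coding parts and 500-base flanks likewise.

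The array's build is not named. Correlation of Cy3 with GC gave an offset of 900 bases from ASM294v3 before a hole in the tiling, within 15 bases in 31 of 31 windows. The offset of 1800 used after the hole was set beforehand and was not checked by correlation. Gene fits kept to chromosome II, and the place of genes inside the inv1 patch was not settled. Near matches were found with BLAST 2.17.0 (Python 3.11.15).

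limma 3.58.1 in R 4.3.3 was fitted over all 6 arrays with 1 coefficient per genotype, and p-values were adjusted by Benjamini-Hochberg at 0.05. Its empirical Bayes step drew the variance of each feature toward a value common to all features of that kind. Slide was no covariate, since no degree of freedom would remain, so within-slide values are given instead. On simulated data for amo1D minus WT with 942 genes, 200 of them shifted, 92% of shifts of 1 and 99.5% of shifts of 2 were called. Of unshifted genes, 2.43% and 1.75% were called. Smaller shifts were not simulated. The differences of genes and flanks reported here were all smaller than 1, so these shares do not apply to them. The number of arrays limits the precision. Members, lists and tests were chosen with earlier results of these data known. Named were the 3 members, genes overlapping their flanks, inv1, amo1, measured genes of the histone list and the 3 genes most like each member. The alternative background corrections were planned on mean signals and used median signals, which the files hold. Protein and probe sequences and the reference promoter table were not used here. Other normalizations, filters, probe sets, flank lengths and leaving out each WT array were tried as alternatives.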

Additional observations from a re-analysis of the deposited data

How the results depend on the processing

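No difference of a gene or flank of hht2, hhf2 or pht1 from WT passed an adjusted p of 0.05 in any of 387 alternative limma fits (smallest adjusted p 0.12), and 28 of 414 alternative values, within-slide values included, had the opposite sign, 6 of them for whole genes. Causes were not tested. No paired analysis was possible because each mutant had 1 array and no replicate number of its own, and a slide block left no residual degree of freedom. Within the slide, whole-gene differences turned or shifted to 0.057 (hht2) and 0.0034 (hhf2) in pob3D, -0.087 (hhf2, amo1D) and -0.28 (pht1, rix1E414K), upstream ones to -0.084 (hht2) and 0.12 (pht1) in amo1D, -0.26 (hht2) and -0.044 (hhf2) in pob3D and -0.50 (pht1, rix1E414K), and downstream ones to 0.116 (hht2, pob3D), -0.064 (hhf2) and 0.00024 (pht1) in amo1D and -0.25 (pht1, rix1E414K). Other sign changes were small. For whole genes they were -0.017 after quantile normalization (hhf2, amo1D) and -0.021 under normexp (pht1, pob3D). For upstream flanks they were -0.045 after quantile normalization and -0.016 after scaling to one spread (hht2, amo1D), 0.031 under loess and 0.075 after quantile normalization (hhf2, rix1E414K), 0.075 under normexp (pht1, rix1E414K), and -0.060 under normexp and -0.048 after quantile normalization (pht1, pob3D). The downstream flank of hht2 in pob3D gave -0.017 under normexp, -0.0075 without background subtraction, -0.031 under loess, -0.020 as a residual on GC and -0.013 in the series table, and that of hhf2 -0.0073 in the series table. Leaving out each WT replicate gave, for differences that changed sign, -0.0056 to 0.18 (hhf2, amo1D), -0.045 to 0.13 (hht2 upstream, amo1D), -0.25 to 0.016 (hhf2 upstream, rix1E414K), -0.29 to 0.013 (pht1 upstream, amo1D), -0.025 to 0.060 (hht2 downstream, pob3D) and -0.082 to 0.14 (hhf2 downstream, pob3D).

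WT ratios moved by more than the WT SD as follows. The hht2 gene was 1.03 with probes of 1 match and 0.85 outside its coding part, an alternative chosen after the data were seen. The hhf2 gene was 0.78 under normexp and the pht1 gene -0.12 under loess. The upstream flank of hht2 was 0.83 under normexp, and that of hhf2 was 0.99 over 250 bases, 1.88 as a median of probes and 0.73 with probes of 1 match. The downstream flank of hht2 was 0.25 under loess and -0.076 under normexp, and that of pht1 0.0035 under loess. As residuals on GC, WT Cy3 was 0.39 (coding), -0.044 (other) and -0.53 (downstream) at hhf2, -0.98 (other), -1.22 (downstream) and 0.11 (upstream) at hht2, and -1.21 (coding), -1.203 (other) and -0.64 (downstream) at pht1. In the same order of genes, Cy5 was 0.91 (coding), 0.53 (other) and 1.82 (upstream), then 2.82 (coding), -0.055 (other), -1.09 (downstream) and 0.65 (upstream), then -1.42 (coding), -1.53 (other) and -0.71 (downstream). Without background subtraction, Cy3 was -0.43 (hhf2 downstream), -1.55 (hht2 other) and -1.43 (pht1 other). With probes of 1 match, Cy3 was -0.13 upstream of hhf2 and 0.016 upstream of hht2, and Cy5 was 0.61 upstream of hhf2, 0.62 upstream of hht2 and 3.45 over the hht2 coding part.

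Counts of features past the adjusted p, none of them a gene or flank of the members, moved widely. For amo1D (0 of each kind), upstream flanks were 13 with medians of probes, 18 without background subtraction and 9 under normexp, downstream flanks 1 with medians and 1 on GC residuals, and probes 3 with probes of 1 match. For pob3D (2 upstream flanks, 0 otherwise), upstream flanks were 0 in the series table, under loess, with probes of 1 match and after scaling, 5 with medians, 10 without background subtraction, 8 under normexp and 8 after quantile normalization, downstream flanks 2 under loess and probes 32 after quantile normalization. For rix1E414K (11 upstream flanks, 0 otherwise), upstream flanks were 2 in the series table, 0 under loess and after scaling, 19 with medians, 24 without background subtraction, 30 under normexp, 7 with probes of 1 match and 5 after quantile normalization. Leaving out each WT replicate gave 0 to 9, 0 to 4 and 0 to 3 genes in amo1D, rix1E414K and pob3D, 0 to 1, 0 to 22 and 0 to 6 upstream flanks, 0 to 19, 0 to 55 and 0 to 36 downstream flanks, and 0 to 144 probes in rix1E414K and 0 to 49 in pob3D.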
